A study of Caenorhabditis elegans with 4 samples.

Results

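The arms of chromosome V of Caenorhabditis elegans carried 286 of the 6048 distinct regions bound by the transcription factor LSY-2 in fed first-stage (L1) larvae. The arms were set by position alone, as regions centred below 5900000 bp (left arm) or above 16550000 bp (right arm) in the WormBase WS220 build, with exact repeats of an interval counted once. The left arm held 178 regions and the right arm 108, and the centre of V between them held 573. The chromatin came from 2 ChIP samples of hermaphrodites of strain OP367, grown at 20 °C, which carries the allele unc-119(ed3) and the transgene wgIs367. The transgene, brought in by bombardment, holds unc-119 and makes LSY-2 with a TY1, EGFP and FLAG tag, and no lsy-2 mutation is listed in the genotype. Fragments bound by the tagged protein were collected with antibodies to GFP. The 2 input samples of the same strain and stage were not analysed here, so no background level stands beside the values, and separate cultures for the replicates are not stated.

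LSY-2 is a C2H2 zinc-finger protein known for making the left and right ASE taste neurons differ, where it acts upstream of the microRNA lsy-6. The autosomes of C. elegans have a central cluster of conserved, broadly expressed genes between 2 arms. The arms recombine more, hold more repeats and more heterochromatin marked by H3K9 methylation, and lie against the nuclear envelope. The arms of V are known for large families of rapidly evolving genes, among them many chemoreceptors, nuclear hormone receptors and F-box proteins. Genes near the regions below were not assigned, for lack of an annotation in WS220.

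Entries of the deposited lists are ranked here by the number in their name, with 1 taken as the best. The list named combined, taken here to draw on both replicates, runs to rank 6064, and each replicate list runs to 30000. Rank is used here as the measure of strength, because 211 of the 286 arm regions (73.8%) tied at the highest score of the combined list. Below that tie the scores do not follow the number throughout. Within runs of numbers the score of arm regions rose as the number rose, and from run to run it fell. The arm region numbered 4464 scored 3.475 and the one numbered 5451 scored 3.562, but the one numbered 5461 scored 3.341. The replicate lists had such runs too. Partners of arm regions scored 3.515 at number 4910 and 3.646 at number 6632 in replicate 1. In replicate 2 they scored 3.305 at number 3029 and 3.587 at number 5791. Words such as best, strong and weak therefore refer to the number and not to the score. The lists hold no read counts, so the depth behind each value is unknown. All comparisons below are descriptions. There is 1 condition, regions are not replicates of it, and no test of arms against centre was run over the 2 samples, where an exact permutation test cannot give a two-sided p below 0.5.

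Binding regions were sparser on the arms than in the centre of the chromosome. The arms held 27.8 regions per Mb of the combined list, against 53.8 per Mb in the centre, a ratio of 0.517. The left arm held 30.2 per Mb (0.561 of the centre) and the right arm 24.7 per Mb (0.459 of the centre). In replicate 1 the 6064 best-ranked entries gave 27.9 per Mb on the arms and 53.8 in the centre. Replicate 2 gave 28.3 per Mb on the arms and 53.4 in the centre. The ratio of arms to centre was therefore 0.525 ± 0.00773 (SD, n = 2), an error that covers the repeat of the calls and not the spread between positions. For the left arm alone the replicate ratio to the centre was 0.582 ± 0.00606 and for the right arm 0.448 ± 0.0263 (SD, n = 2 each), so the arms lay further apart than the replicates did. The combined regions covered 85.3 kb, or 0.831% of the arms, against 1.60% of the centre.

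Along each arm the regions were spread unevenly, most of all on the right. Counted outwards from the limit with the centre, the first 1 Mb of the right arm held 9 combined regions, the next 16, then 27 and 29. The remaining 0.373 Mb before the end of the chromosome held 27 regions, or 72.4 per Mb, which is above the average of the centre. Replicate 1 gave 61.6 per Mb in that last stretch and replicate 2 gave 75.04. The whole outermost 1 Mb of the right arm held 48 regions, which is 44.4% of the arm's regions, while the inner 2 Mb held 25. The profile depends on where the bins start. Counted inwards from the end of the chromosome, the 1 Mb bins of the right arm held 48, 24, 19 and 9 regions. The remaining 0.373 Mb beside the centre then held 8, or 21.4 per Mb. The centre's whole 1 Mb bins ranged from 31 to 84 regions, with a median of 59. The left arm was more even. Counted outwards from its limit it held 37, 34, 28, 21 and 31 regions per 1 Mb bin, and 27 in the last 0.9 Mb. Its sparsest 1 Mb bin had 21 entries in replicate 1 and 24 in replicate 2, the lowest value of the arm's bins in both replicates.

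**Figure D1:**
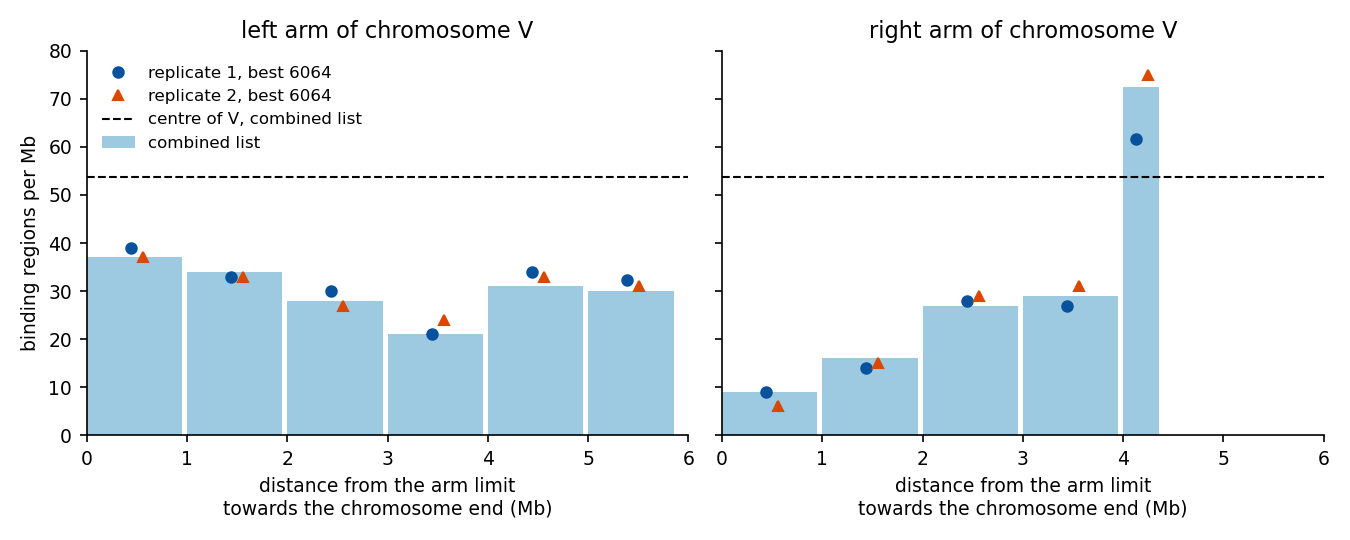
LSY-2 regions per Mb (y axis) in 1 Mb bins by distance from the arm limit towards the chromosome end (x axis, Mb), for the left and right arms of V; the outermost bin of each arm is shorter. Bars are the combined list, points the 6064 best entries of each replicate, and the dashed line the centre of V at 53.8 per Mb. In these bins the right arm climbs from 9 regions per Mb beside the centre to 72.4 per Mb at its end, while the left arm stays between 21 and 37. With bins counted from the chromosome end, the right arm has 21.4 per Mb beside the centre and 48 in its outermost 1 Mb.

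In the crowded end of the right arm a small share of the regions were among the strongest. The outermost 1 Mb held 5 of the arm's regions among the 1516 strongest combined entries, or 10.4% of its 48 regions (95% Wilson interval 4.53 to 22.2), against 25% over all chromosomes. Per Mb those 5 regions were close to the density of such regions over the whole right arm, with 23 or 5.26 per Mb. The outermost 1 Mb also held 3 of the 10 best-ranked regions of the right arm. In the outermost 1 Mb of the left arm 9 of 32 regions (28.1%, 15.6 to 45.4) were that strong. All 48 and all 32 regions had partners in both replicates. The median rank was 3546 at the right end and 2340 at the left end. The 2 intervals overlap, so the ends are not told apart by this share.

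The densest 100 kb windows of the arms recount the same combined regions on a finer scale and were picked for their counts. On the right arm they were V, 20700001 to 20800000, with 16 regions, V, 20400001 to 20500000, with 12, and V, 20800001 to 20900000, with 7. The first of these windows had 12 entries among the best 6064 of replicate 1 and 18 in replicate 2. The second had 12 in both, and the third had 8 in replicate 1 and 5 in replicate 2. On the left arm 4 windows tied at 8 regions, at V, 700001 to 800000, V, 2600001 to 2700000, V, 5700001 to 5800000 and V, 5800001 to 5900000. Windows with no region made up 12 of 59 on the left arm (20.3%) and 13 of 43 on the right (30.2%), against 7 of 106 in the centre (6.60%). The fullest window of the centre held 19 regions.

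Regions of the arms were ranked much like those of the centre. Among the arm regions 67 of 286 (23.4%, 95% Wilson interval 18.9 to 28.7) belonged to the 1516 strongest entries, against 138 of 573 in the centre (24.1%, 20.8 to 27.8). The share over all chromosomes was 25%, so the arms stood near the background. The left arm had 44 such regions (24.7%) and the right arm 23 (21.3%, 14.6 to 29.9). The median rank was 3060.5 on the arms and 3122 in the centre. The 500 best regions of the list included 22 of the arms, or 7.69% of the arm regions, and 37 of the centre, or 6.46% of its regions. Over all chromosomes that share was 8.27%.

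The best-ranked region of the left arm lay at V, 2694381 to 2694791 and ranked 50 in the combined list. It ranked 49 in replicate 1 and 50 in replicate 2, so its place hardly moved. The next of the left arm was at V, 8092 to 8472, the first combined region of the whole chromosome. It ranked 152, with ranks 143 and 193 in replicates 1 and 2. It has a close neighbour whose centre is 612.5 bp away. The region at V, 5584426 to 5584755 ranked 263, with ranks 251 and 243. The region at V, 1151321 to 1151702 ranked 278, with ranks 260 and 290. Near the limit with the centre lay V, 5684594 to 5684866 (rank 279) and V, 5505075 to 5505375 (rank 339). The other members of the left arm's best 10 were at V, 1868668 to 1868920 (rank 347), V, 5592389 to 5592630 (rank 394), V, 4507748 to 4508090 (rank 411) and V, 773324 to 773571 (rank 441). They were thus scattered along the whole arm, with 4 of the 10 in its last 0.5 Mb before the centre.

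The right arm's best region lay at V, 17981685 to 17982143 and ranked 119. At 459 bp it was the widest of the right arm, and it ranked 102 in replicate 1 and 142 in replicate 2. The second, at V, 19643899 to 19644235, ranked 126, with ranks 118 and 129, and stood 866 bp from a region of rank 594. The third, at V, 18967670 to 18967958, ranked 146, with ranks 173 and 120. The fourth, at V, 20845504 to 20845821, ranked 167, with ranks 152 and 201. Together with V, 20778184 to 20778620 (rank 259) and V, 20580565 to 20580891 (rank 404) it lay in the crowded end of the arm. The region at V, 16965701 to 16965955 ranked 270, with ranks 275 and 262, and is described again below for its isolation. The other 3 of the right arm's best 10 were at V, 17921469 to 17921708 (rank 431), V, 18723675 to 18723908 (rank 447) and V, 17951263 to 17951561 (rank 478). In all, 3 of the right arm's best 10 fell within the single 100 kb window at V, 17900001 to 18000000, which held 5 regions in all.

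Just inside the left limit lay V, 5851700 to 5852049 (rank 4568), and just outside it V, 5917770 to 5917992 (rank 477). At the right limit the region just inside was V, 16592152 to 16592501 (rank 3399), and the one just outside was V, 16538030 to 16538359 (rank 214).

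Region width went with rank on the arms. Of the 286 arm regions 177 (61.9%) were exactly 350 bp wide, against 63.9% in the centre. Those 177 had a median rank of 4234, whereas the 109 arm regions of any other width, from 88 to 497 bp, had a median rank of 1181. All 67 arm regions among the 1516 strongest entries were of another width, with a median of 234 bp, and in the centre 137 of 138 were. The most common width of the whole combined list was also 350 bp.

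The arm regions held similar ranks in both replicates. Of the 286 arm regions 281 (98.3%, 95.97 to 99.3) overlapped an entry of both replicate lists, against 564 of 573 in the centre (98.4%), and the share over all chromosomes was 98.9%. How the combined list was made is not given. If it draws on both replicates, as its name implies, this share is in part a matter of selection. Over the 281 arm regions the ranks in replicates 1 and 2 had a Spearman's rho of 0.79, and over 564 regions of the centre a rho of 0.79. This is a correlation across regions that were selected for being found in both samples. The median ratio of the larger to the smaller rank was 1.40 on the arms and 1.34 in the centre. Neither replicate ranked the arms better as a whole, with 141 arm regions better placed in replicate 1 and 140 in replicate 2.

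**Figure D2:**
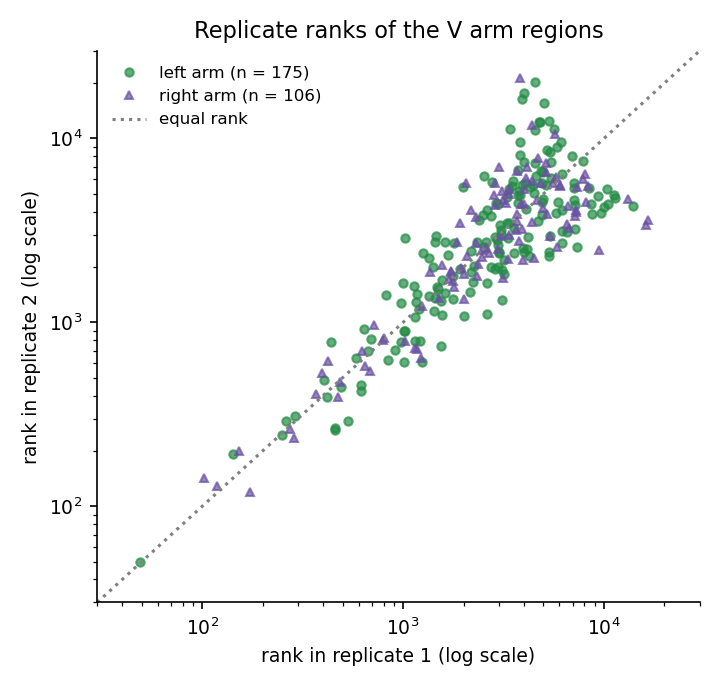
Rank of each V arm region's best partner in replicate 1 (x axis, log scale) and replicate 2 (y axis, log scale), for the 175 left-arm and 106 right-arm regions with partners in both; the dotted line marks equal rank. Points hug the line at the best ranks and fan out beyond, up to a ratio of 5.58.

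The 5 arm regions that lacked a partner in 1 replicate were all in the weaker part of the list. They were V, 1472654 to 1473003 (rank 4679), V, 5153445 to 5153794 (rank 5833) and V, 17723172 to 17723521 (rank 5322), which had no entry in replicate 1, and V, 5826492 to 5826841 (rank 4401) and V, 18868426 to 18868775 (rank 5655), which had none in replicate 2. Each was 350 bp wide. Other arm regions had a weak partner in one sample or in both. The best partner lay beyond rank 6064 in replicate 1 for 41 arm regions (14.3%) and in replicate 2 for 40 (14.0%). Over all chromosomes the shares were 13.1% and 15.1%. The region at V, 16595176 to 16595525, 1 of 6 arm regions with a ratio above 4, had ranks of 3837 in replicate 1 and 21418 in replicate 2, a ratio of 5.58. In the crowded right end, V, 20793810 to 20794159 (ranks 16187 and 3372) and V, 20431484 to 20431833 (ranks 16574 and 3597) were much better placed in replicate 2. Better placed in replicate 1 were V, 3278243 to 3278592 (ranks 4530 and 20354) and V, 4628466 to 4628815 (4002 and 17700) on the left arm. So was V, 774844 to 775193 (3904 and 16354), also on the left arm. A ratio above 2 was found for 45 of 281 arm regions, 100 of 564 in the centre and 934 of 5984 over all chromosomes. The threshold of 4 was chosen after the ratios had been seen.

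Among the 48 arm regions within the best 1000 combined entries, ranks differed less, with a median ratio of 1.27 and none above 2.04. The largest ratios belonged to V, 126691 to 126921 (ranks 1238 and 608 in replicates 1 and 2), V, 17871123 to 17871328 (1235 and 640) and V, 5592389 to 5592630 (530 and 292). Next came V, 4194850 to 4195101 (438 and 778) and V, 1868668 to 1868920 (460 and 261). Of these 5 regions 4 were better placed in replicate 2.

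A comparison free of the combined list was made between the 6064 best entries of each replicate. On the arms 217 of 287 replicate 1 entries (75.6%, 70.3 to 80.2) overlapped such an entry of replicate 2, against 74.0% in the centre and 75.7% over the nuclear genome. In the other direction 215 of 291 arm entries (73.9%, 68.5 to 78.6) overlapped, against 73.6% in the centre and 74.8% over the nuclear genome. Nearly all strong arm entries had some partner: 95.1% of the 287 and 96.9% of the 291 overlapped an entry of any rank in the other sample. The combined list left out 42 of the 287 arm entries of replicate 1 (14.6%) and 46 of the 291 of replicate 2 (15.8%). In the centre it left out 12.7% and 16.3%. The best arm entries left out were at ranks 2166 and 2431. Of the 42 and 46 arm entries left out, 30 and 40 overlapped an entry of any rank in the other replicate. In the centre it was 57 of 73 and 63 of 93.

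Weak entries were spread far more evenly between arms and centre than strong ones. Among ranks 1 to 500 the arms had 22 entries in each replicate against 39 in the centre, a ratio per Mb of 0.585 in both. Among ranks 1517 to 6064 the ratio was 0.521 ± 0.0127 (SD, n = 2). It was 0.628 ± 0.0359 among ranks 6065 to 12000 and 0.874 ± 0.0144 among ranks 12001 to 20000. Beyond rank 20000 the arms held 67.4 entries per Mb in replicate 1 against 77.5 in the centre, and 73.3 in replicate 2 against 73.6 in the centre. The mean ratio of that weakest group was 0.933 ± 0.0892. In both replicates it was above every ratio found within the best 12000.

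The ratio varied more with rank on the right arm than on the left. Among ranks 501 to 1516 it stood at 0.353 ± 0.0279 of the centre and the left arm at 0.636 ± 0.0404 (SD, n = 2 each). Beyond rank 20000 the right arm reached 0.982 ± 0.0911 and the left arm 0.896 ± 0.0878. In replicate 2 the weakest right-arm entries were even denser than those of the centre, at a ratio of 1.05, and in replicate 1 the ratio was 0.918. The few entries of ranks 1 to 500 on the right arm, 11 and 9 in replicates 1 and 2, did not show the low ratio of the next group.

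**Figure D3:**
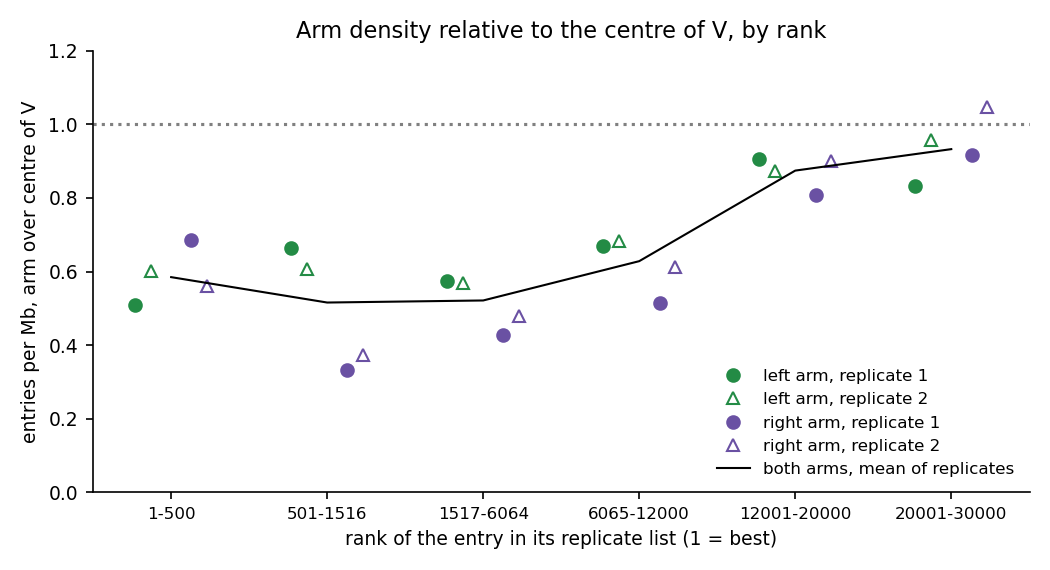
Entries per Mb on the left and right arms of V divided by entries per Mb in the centre (y axis), by the rank of the entry in its replicate list (x axis, 1 is the best); filled circles are replicate 1, open triangles replicate 2, the black line the mean for both arms and the dotted line a ratio of 1. The line stays between 0.516 and 0.628 up to rank 12000 and climbs to 0.874 and 0.933 in the weakest groups.

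Weaker arm entries overlapped an entry of the other replicate at shares near or below those of the centre. Of the entries ranked 20001 to 30000 on the arms, 269 of 692 in replicate 1 (38.9%, 35.3 to 42.6) overlapped any replicate 2 entry, against 38.7% in the centre. In replicate 2 it was 237 of 753 (31.5%, 28.3 to 34.9), against 38.9% (35.6 to 42.4) in the centre. In this weakest group a lower share on the arms than in the centre was thus seen from replicate 2 and not from replicate 1. Among ranks 12001 to 20000 the share was lower on the arms from both, at 49.1% against 53.2% in the centre for replicate 1 and 45.3% against 51.8% for replicate 2. Among ranks 6065 to 12000 it was 65.6% on the arms against 69.8% in the centre for replicate 1, and 63.1% against 69.5% for replicate 2. The 95% intervals of arms and centre overlap in each of these last comparisons. Over all ranks together 55.2% of arm entries of replicate 1 and 50.8% of replicate 2 had a partner, against 61.5% and 61.0% in the centre. Those totals mix ranks, and the arms hold a larger part of weak entries, beside the lower shares within ranks given above. Entries of any rank were also fewer per Mb on the arms, at 179.98 in replicate 1 and 187.6 in replicate 2. In the centre they stood at 244.6 and 237.1 per Mb. Overlaps that arise by density alone were not subtracted, and their part in these differences was not tested.

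Neighbouring regions stood further apart on the arms. The stretch between neighbouring regions had a median of 14.8 kb on the arms, against 7.42 kb in the centre, and 25% of the arm stretches exceeded 42.9 kb, against 24.2 kb for the same share of the centre. No combined intervals overlapped one another on the arms, where merging left all 286, while merging reduced the 573 of the centre to 562. A neighbour with its centre within 1000 bp was present for 39 of 286 arm regions (13.6%, 10.1 to 18.1), against 116 of 573 in the centre (20.2%, 17.2 to 23.7) and 18.1% over all chromosomes. After merging, the values were 13.6% on the arms and 16.9% in the centre (14.0 to 20.2), and the intervals overlap. The right arm had more such neighbours (21 of 108, 19.4%, 13.1 to 27.9) than the left (18 of 178, 10.1%, 6.49 to 15.4), with intervals that overlap. Within 2000 bp the order turned, with 31 of 108 on the right arm (28.7%) and 58 of 178 on the left (32.6%). Spacing and neighbour shares were not adjusted for density, which was 27.8 regions per Mb on the arms and 53.8 in the centre. Whether they differ between arms and centre apart from that density was not tested.

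**Figure D4:**
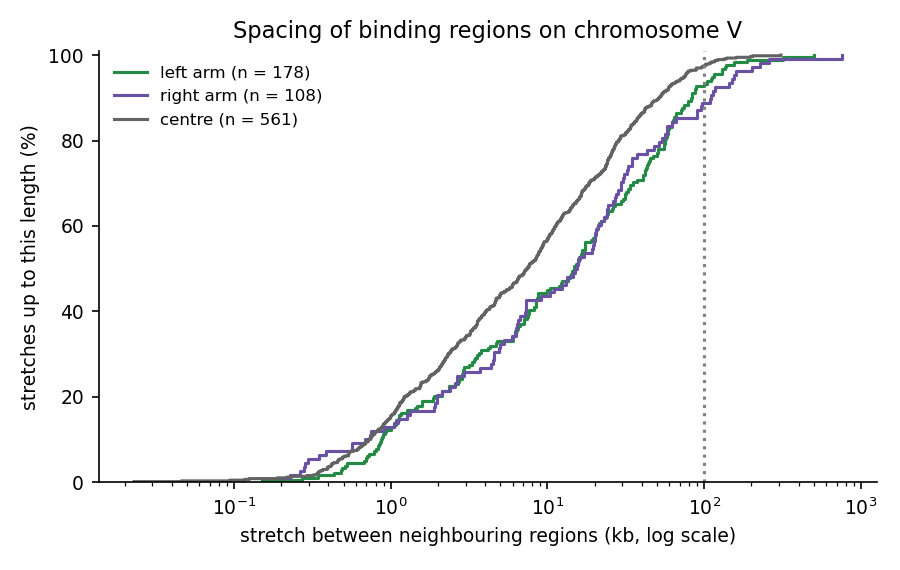
Share of stretches between neighbouring combined regions (y axis, percent) that are no longer than the length on the x axis (kb, log scale), for the left arm, right arm and centre of V; the dotted line marks 100 kb. The curves of both arms run to the right of the centre over most lengths, with medians of 14.7 kb (left), 15.2 kb (right) and 7.42 kb (centre).

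Close neighbours on the arms came mostly in pairs. The left arm had 7 pairs and 1 chain of 4, and the right arm had 9 pairs and 1 chain of 3. The chain of 4 spanned V, 5843551 to 5846150, close to the limit with the centre, and its regions ranked from 953 to 5052. The chain of 3 lay in the crowded right end at V, 20711654 to 20713008, with ranks from 3391 to 3584. A pair of strong regions was at V, 19643071 to 19644235 (ranks 126 and 594), and a pair with a strong and a weaker member, at the very start of the chromosome, was at V, 8092 to 9043 (ranks 152 and 1616).

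Long stretches without any combined region took up much of the arms. Gaps of over 100 kb numbered 24 on the arms, 12 on each, and spanned 4.64 Mb or 45.2% of them, against 14 gaps and 19.1% of the centre. The share was 57.2% on the right arm and 36.3% on the left. The longest gap of the chromosome was on the right arm, at V, 16965956 to 17723171, with 757.2 kb. The next were on the left arm at V, 2694792 to 3195072 (500.3 kb) and V, 2281958 to 2600606 (318.6 kb). Among the arm gaps the next were on the right arm at V, 18087131 to 18346062 (258.9 kb) and V, 19666652 to 19894793 (228.1 kb). At the ends of the chromosome, 8091 bp lay before the first region and 19130 bp between the last region and the last entry of any list.

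Some of these gaps bordered on strong regions. The best-ranked region of the left arm, of rank 50, is the left border of the 500.3 kb gap. The region of rank 270 at V, 16965701 to 16965955 stood alone, with the 757.2 kb gap on one side and a gap of 150.5 kb on the other. It was 1 of 3 arm regions with a gap of over 100 kb on both sides, and the other two, at V, 1627343 to 1627692 and V, 18346063 to 18346412, ranked 5819 and 5666. Of all 45 arm regions that border a gap, 9 (20.0%, 10.9 to 33.8) were among the 1516 strongest entries, near the 23.4% of all arm regions.

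The gaps were not empty in the replicate lists. Each of the 24 arm gaps held at least 3 entries in both replicates, with 326 entries of replicate 1 and 379 of replicate 2 in all. Entries ranked beyond 20000 lay in them at 30.8 per Mb in replicate 1, against 97.5 in the remaining parts of the arms. In replicate 2 the values were 40.3 and 100.5 per Mb. The ratio of gaps to remaining parts was 0.358 ± 0.0600 (SD, n = 2) on the arms and 0.307 ± 0.0438 in the gaps of the centre. The gaps had been picked for holding no combined region, so a low density of weak entries there is not an independent result. Of the gap entries, 145 of replicate 1 (44.5%) and 149 of replicate 2 (39.3%) overlapped an entry of the other replicate. Over all arm entries the shares were 55.2% and 50.8%. Only 10 of the 326 and 8 of the 379 gap entries ranked within the best 6064. Over the arms it was 287 of 1849 and 291 of 1927. The best gap entries ranked 2166 and 2952, both in the gap at V, 5296283 to 5432984.

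The long gaps differed from one another. The 757.2 kb gap held 7 entries of replicate 1 and 12 of replicate 2, or 9.24 and 15.8 per Mb, and the best of them ranked 17824 and 6461. A stretch of 296.1 kb within it, V, 16966714 to 17262844, had no entry in any list, the longest such stretch of the chromosome. The 318.6 kb gap of the left arm held 4 and 7 entries, or 12.6 and 21.97 per Mb, with an entry-free stretch of 230.04 kb. The 500.3 kb gap held more, 22 and 30 entries. By contrast, the gap of 228.1 kb held 29 and 37 entries (127.1 and 162.2 per Mb), of which 18 and 16 overlapped between the replicates. The gap at V, 20091117 to 20249684, in the crowded right end, held 33 and 36 entries (208.1 and 227.03 per Mb). Over all entries the arms averaged 179.98 per Mb in replicate 1 and 187.6 in replicate 2, so this gap was no poorer in entries than the arms as a whole. Whether reads can be placed in the poorest stretches was not tested.

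**Figure D5:**
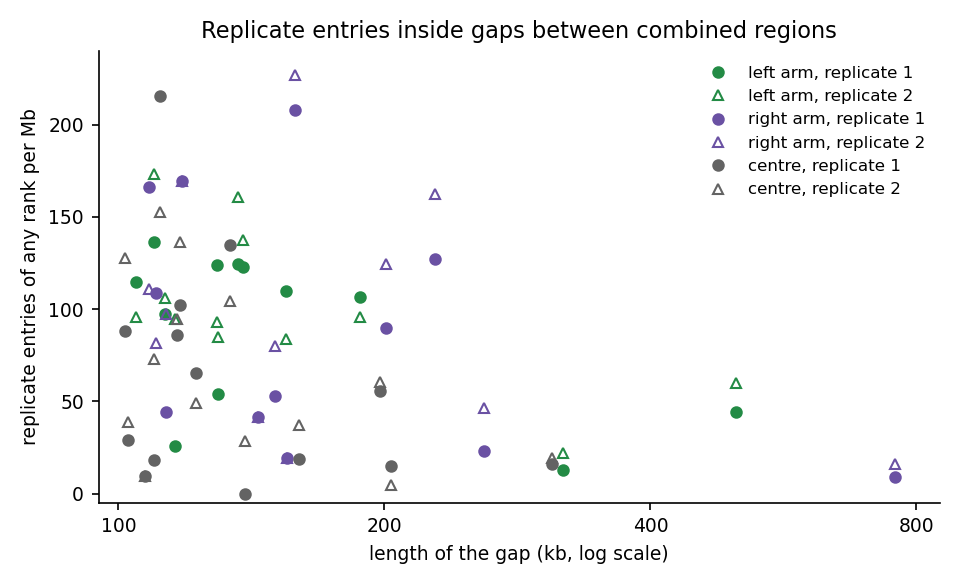
Replicate entries of any rank per Mb (y axis) inside each gap of over 100 kb between combined regions on V, by gap length (x axis, kb, log scale); colours are the left arm, right arm and centre, filled circles replicate 1 and open triangles replicate 2. The 3 longest arm gaps stay at or below 59.97 entries per Mb, while an arm gap of 158.6 kb reaches 208.1 and 227.03.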

How the data were processed

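LSY-2 binding was measured by ChIP-seq in 2 samples. The deposited lists hold 1 entry per binding site with a score by the authors whose scale is not named; per the file headers the build is WormBase WS220, and the source field names SPP, a peak caller, with the irreproducible discovery rate (IDR). How reads were aligned, which versions and thresholds applied, how the input entered and how the combined list was made is not given in the sources used here. Because scores tie, entries were ordered by the number in their name, which the scores below the tie do not follow throughout. Arm lengths run from position 1 and to the largest entry end on V, 20923132. Overlap means at least 1 bp. Gaps run between the ends of neighbouring combined regions and belong to the segment holding their midpoint. Shares have 95% Wilson intervals, which cover counting error over entries only and are too narrow where neighbours are not independent. No tests were run.

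The arms, limits and comparisons were chosen with earlier results of these data known. Named regions are the 10 best-ranked of each arm, the 5 longest gaps, the 3 densest 100 kb windows of each arm with ties, and the 5 with the largest ratio of replicate ranks among the best 1000. Other regions named, and the rank groups and end stretches, were chosen after their values were seen. Sequence and genes were not used here, for lack of a genome and annotation in WS220. Alternatives were other overlap rules, entry numbers, limits, gap lengths and distances, and each replicate alone. Python 3.11.15 with pandas 2.3.3, numpy 2.4.6 and scipy 1.17.1 was used, after tests on simulated intervals.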

Additional observations from a re-analysis of the deposited data

How the results depend on the processing

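Of 29 alternative values 10 stayed within the replicate SD or the interval of the value reported. The ratio of arm to centre density (0.517) was 0.528 for the 3032 best combined entries, 0.503 for the 1516 best, 0.528 with overlapping intervals merged, and 0.534 with both limits moved 500 kb inwards; with 1 replicate left out it was 0.519 to 0.530. The overlap of arm regions with both replicates (98.3%) fell to 82.9% with reciprocal 50% overlap and was 100% for the 3032 best entries. Overlap between the best entries of the replicates on the arms was 67.2% of replicate 1 and 66.3% of replicate 2 with reciprocal 50% overlap, 55.2% and 50.8% over all entries, and 87.7% and 80.5% with 3032 entries each. The arm share among the strongest entries was 49.7% for the best 3032 and 9.44% for the best 606; with strength taken from 1 replicate it was 24.1% to 24.5%. Arm gaps numbered 65 over 50 kb and 6 over 200 kb. The ratio of weak entries in gaps was 0.316 to 0.401 with 1 replicate left out. Close neighbours made up 2.10% of arm regions within 500 bp and 31.1% within 2000 bp. Those thresholds define other quantities, which their construction moves. No paired analysis was possible because the shared replicate numbers join ChIP samples to inputs that are not analysed here. Depth is unknown, and the lists show neither input signal nor the stretches where reads cannot be placed.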
